A study of Rattus norvegicus with 8 samples.

Results

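The 9 genes described here carry bicarbonate, chloride and other anions across cell membranes. They are the Slc4 genes Slc4a1, Slc4a2, Slc4a3 and Slc4a4, the Slc26 genes Slc26a1, Slc26a2, Slc26a4 and Slc26a7, and the anion channel gene Cftr. They were taken by name from the annotation of the array, by a rule that uses no signal, although the set was proposed with earlier results of these data known, and were 9 of the 21558 gene symbols on it, read by 10 of the 22523 probes. The samples were enamel organs of the continuously growing mandibular incisors of 4 male Wistar rats (Wistar Hannover in the study's methods) aged 4 weeks, for which no treatment is named, and each rat gave 1 secretory-stage and 1 maturation-stage sample, so that each stage was measured on 4 Illumina RatRef-12 arrays. The enamel organ is the multicellular layer over the forming enamel and holds other cells besides ameloblasts, so fewer cells of a type and less RNA per cell cannot be told apart in these values.

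Enamel crystals release protons as they grow, and in the maturation stage the ameloblasts buffer the enamel with bicarbonate. Carbonic anhydrases make bicarbonate inside the cell, sodium-bicarbonate cotransporters bring more of it in from the blood side, and anion exchangers and CFTR move bicarbonate and chloride across the membranes on either side. Inherited loss of SLC4A4 or CFTR is known to leave enamel poorly mineralized.

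In the maturation stage, 5 of the 9 genes were higher, namely Slc4a2, Slc4a4, Slc26a1, Slc26a7 and Cftr, and each of them was higher in 4 of 4 rats. Slc26a1 and Cftr were undetected throughout the secretory stage. In the background-corrected signals, the maturation-stage mean exceeded the secretory-stage detection limit by at least 30.5-fold for Slc26a1 and by at least 4.11-fold for Cftr. These bounds depend on that correction, and in the signals as deposited, background included, the ratio within a rat was 9.92 to 16.97 for Slc26a1 and 2.05 to 3.01 for Cftr. The fitted folds were 4.12 for Slc4a4 and 2.92 for Slc4a2, which were detected on all arrays. That of Slc26a7 was 7.73, against a secretory-stage signal detected on 1 of 4 arrays. Slc4a1 and Slc4a3 were detected on all 8 arrays and did not pass the test, while Slc26a2 and Slc26a4 gave little or no signal above background. No member was lower, with limma, with the test of the study's methods or at an unadjusted p below 0.05.

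A gene was called when limma gave an adjusted p below 0.05 (Benjamini-Hochberg, over all probes) together with a change of 1.8-fold or more. By this rule 4.6% of all probes rose from the secretory to the maturation stage, 3.15% fell, and 7.75% did either. With the adjusted p alone the shares were 12.8% higher and 14% lower. The 4 maturation-stage values lay above the 4 secretory-stage values for 5 of the 9 genes and for 13.1% of all probes. The median log2 fold change was 1.55 over the 9 genes and -0.01 over all probes, where a log2 fold change is the mean log2 signal of the maturation stage minus that of the secretory stage. The 4 samples of a stage came from separate rats.

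**Figure D1:**
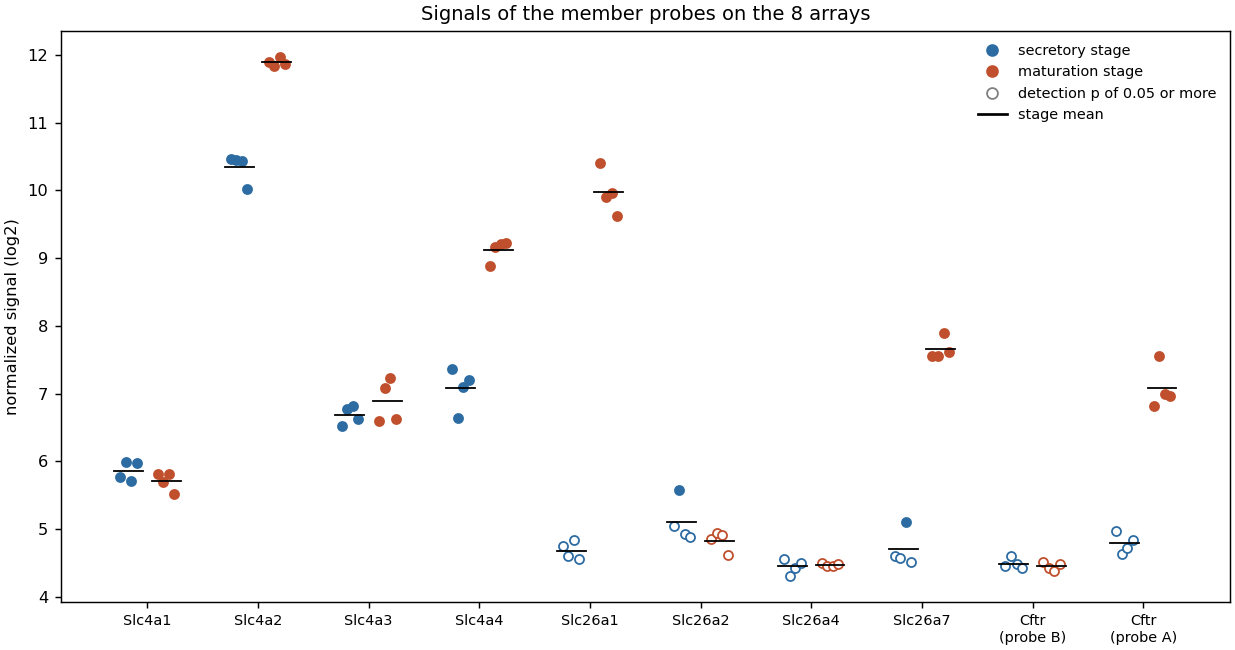
Normalized log2 signal of each of the 10 member probes on the 8 arrays, with a point for each array, a bar for the mean of each stage and an open point where the detection p was 0.05 or more. The stages are apart for Slc4a2, Slc4a4, Slc26a1, Slc26a7 and probe A of Cftr, and probe B of Cftr and the probe of Slc26a4 have open points only.

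The sequences around an annotated start of Slc26a1 and Cftr are shown because these were the called members without a detected secretory-stage signal. They are from RefSeq on the GRCr8 assembly and run from 250 bases before to 50 bases after the annotated start of a transcript, 5′ to 3′ on the strand of the gene. The Slc26a1 window lies at chr14:1184721-1185020 on the plus strand, and the Cftr window at chr4:47527379-47527678, also on the plus strand. RefSeq places the Slc26a1 gene at 1180465 to 1190257 and the Cftr gene at 47422084 to 47694646 on these chromosomes, so each window lies inside its gene, at the start of an internal transcript and not at the outermost start. Capitals mark matches to a GC box (GGGCGG) or a CCAAT box (CCAAT) on either strand, the latter standing as ATTGG when it is on the other strand.
Slc26a1: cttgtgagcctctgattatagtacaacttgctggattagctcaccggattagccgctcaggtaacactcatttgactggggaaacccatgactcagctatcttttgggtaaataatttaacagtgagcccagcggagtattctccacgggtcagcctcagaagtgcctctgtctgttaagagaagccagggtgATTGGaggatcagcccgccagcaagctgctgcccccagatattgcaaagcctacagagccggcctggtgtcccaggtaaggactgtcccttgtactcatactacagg
Cftr: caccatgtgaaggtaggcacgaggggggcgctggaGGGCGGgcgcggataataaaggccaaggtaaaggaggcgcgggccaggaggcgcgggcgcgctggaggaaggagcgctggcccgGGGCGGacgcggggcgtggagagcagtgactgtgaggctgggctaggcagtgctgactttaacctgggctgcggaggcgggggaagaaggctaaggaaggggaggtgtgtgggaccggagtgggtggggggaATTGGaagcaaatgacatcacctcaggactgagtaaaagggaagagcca
The Slc26a1 window held 1 CCAAT box and the Cftr window 2 GC boxes and 1 CCAAT box. No match overlapped another. A GC box was in 33.1% and a CCAAT box in 37.5% of the 33469 promoter windows of this length, so these letters are common. Neither window held a TATA box (TATAAA), which was in 14.2% of all windows, a cAMP response motif (TGACG), which was in 21.2%, or an E-box (CACGTG), which was in 6.42%. G and C made up 51.3% of the Slc26a1 window, close to the median of 51.7% over all windows, and 65.0% of the Cftr window. They made up 75.0% of the Slc4a2 window and 78.0% of the Slc4a4 window. The RefSeq promoter table held 7 of the 9 members, and Slc4a1 and Slc26a7 were not among them.

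Among the Slc4 genes, Slc4a2 encodes AE2, which exchanges chloride for bicarbonate at the basolateral membrane of many epithelia. Its log2 signals were 11.89, 11.84, 11.97 and 11.86 in maturation replicates 1 to 4 and 10.46, 10.45, 10.44 and 10.02 in secretory replicates 1 to 4. The stages did not overlap, and secretory replicate 4 was the lowest value. The means were 11.89 ± 0.0550 and 10.34 ± 0.214 (SD, n = 4 each). The log2 fold change was 1.55 (SE 0.101, 95% interval 1.32 to 1.77), with a limma adjusted p of 3.36e-06. In the signals as deposited, Slc4a2 read 4796, 4284, 4081 and 4423 in the maturation stage against 1249, 1288, 1263 and 912 in the secretory stage.

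Slc4a4 encodes NBCe1, an electrogenic sodium-bicarbonate cotransporter that loads epithelial cells with bicarbonate. Its log2 signals were 8.88, 9.17, 9.21 and 9.22 in the maturation stage and 7.36, 6.65, 7.10 and 7.20 in the secretory stage. The lowest maturation-stage value, in replicate 1, was still above the highest secretory-stage value, also in replicate 1. The log2 fold change was 2.04 (SE 0.147, 95% interval 1.71 to 2.37), with a limma adjusted p of 6.38e-06. The difference between the stages was 1.52 in rat 1, 2.52 in rat 2, 2.11 in rat 3 and 2.02 in rat 4. Slc4a4 was thus detected in each stage on every array, as was Slc4a2.

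Slc4a3 encodes AE3, a chloride-bicarbonate exchanger best known from heart and brain. Its log2 signals were 6.59, 7.08, 7.24 and 6.63 in the maturation stage and 6.52, 6.78, 6.81 and 6.63 in the secretory stage. The stages overlapped, and only maturation replicates 2 and 3 stood above all secretory-stage values. The log2 fold change was 0.20 (SE 0.148, 95% interval -0.14 to 0.53), with a limma adjusted p of 0.428. As deposited, the signals were 222, 256, 248 and 211 against 161, 181, 183 and 167, which made Slc4a3 1.26 to 1.41 times as bright in the maturation stage of each rat, but the summed signals of all probes also differed between the 2 arrays of a rat, by 1.11 to 1.36 times. Without normalization between arrays the log2 fold change of Slc4a3 was 0.69 (limma adjusted p = 0.00205), below the fold threshold.

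Slc4a1 encodes AE1 or band 3, the main anion exchanger of red blood cells, which is also made in the acid-secreting cells of the kidney. Its log2 signals were 5.82, 5.70, 5.81 and 5.52 in the maturation stage and 5.77, 5.99, 5.71 and 5.97 in the secretory stage. The stages overlapped, and the difference was above 0 in rats 1 and 3 and below 0 in rats 2 and 4. The log2 fold change was -0.15 (SE 0.0941, 95% interval -0.36 to 0.06), with a limma adjusted p of 0.335, and it was 0.03 under median scaling and 0.26 without normalization between arrays. Red cell transcripts were found in both stages. Of 13 red cell genes listed as markers, 10 were on the array and 8 were detected, with summed signals of 48945 to 56888 in the maturation stage and 42948 to 59463 in the secretory stage. None of them passed the test with limma or with the test of the study's methods, and 3 of them, Alas2, Epb42 and Sptb, were lower at an unadjusted p below 0.05. Hbb, the beta globin gene, had mean log2 signals of 14.49 ± 0.100 and 14.35 ± 0.394 (SD, n = 4 each), while Klf1 and Rhag were undetected on every array. The part of red cells in the Slc4a1 signal was not tested.

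The Slc4 genes differed among themselves in how far their signals moved. Their probes also differed in brightness, with maturation-stage means of 5.71 for Slc4a1, 6.89 for Slc4a3, 9.12 for Slc4a4 and 11.89 for Slc4a2. The part of brightness in these differences was not tested. In an exact permutation test over the 8 arrays of the difference between 2 genes' log2 signals (two-sided, 6 pairs, Benjamini-Hochberg adjusted), Slc4a2 rose by 1.35 more than Slc4a3 and by 1.69 more than Slc4a1 (adjusted p = 0.0429 each, from 0.0286, the smallest p that 4 against 4 arrays allow). In the same exact test Slc4a4 rose by 1.84 more than Slc4a3 and by 2.19 more than Slc4a1 (adjusted p = 0.0429 each). The rise of Slc4a4 was 0.49 larger than that of Slc4a2, which did not pass (exact adjusted p = 0.0686), and Slc4a3 was not told apart from Slc4a1 either (difference 0.35, exact adjusted p = 0.114). This test does not use the pairing of the samples by rat. Within the rats the differences had 1 direction: Slc4a4 minus Slc4a2 was 0.09, 1.13, 0.58 and 0.18 in rats 1 to 4, and Slc4a3 minus Slc4a1 was 0.02, 0.60, 0.32 and 0.45.

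Slc26a1 encodes SAT-1, which exchanges sulfate, oxalate and bicarbonate at the basolateral membrane of kidney and liver cells. Its log2 signals were 10.40, 9.91, 9.96 and 9.63 in the maturation stage and 4.75, 4.60, 4.84 and 4.56 in the secretory stage. The secretory-stage values were at background on all 4 arrays, with detection p-values of 0.112 to 0.402, and the maturation-stage values were far above them. The deposited signals of Slc26a1 were 1834, 1226, 1117 and 1037 against 108, 105, 113 and 104. After background correction, its maturation-stage mean was at least 30.5-fold the lowest signal of a detected probe on the secretory-stage arrays. This bound has no p-value of its own. The fitted log2 fold change of Slc26a1 was 5.29 (SE 0.146, limma adjusted p = 3.07e-08), and 3.29 without background correction. It was the largest fitted value among the 9 genes. Where secretory-stage signals were at background, as for Slc26a1 and Cftr, the fitted values do not rank the true folds.

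Slc26a7 encodes a chloride and bicarbonate transporter of the acid-secreting cells of stomach and kidney. Its log2 signals were 7.55, 7.56, 7.89 and 7.61 in the maturation stage and 4.61, 4.57, 5.10 and 4.52 in the secretory stage. Secretory replicate 3 was the only secretory-stage array on which it was detected, at a detection p of 0.0388, and replicate 3 was the highest in each stage. The log2 fold change was 2.95 (SE 0.135, 95% interval 2.65 to 3.26), with a limma adjusted p of 3.86e-07, and it was 1.39 without background correction.

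Slc26a2 encodes a sulfate transporter that cartilage needs, and Slc26a4 encodes pendrin, a chloride, iodide and bicarbonate exchanger of inner ear, thyroid and kidney. The log2 signals of Slc26a2 were 4.85, 4.94, 4.91 and 4.62 in the maturation stage, undetected on all 4 arrays, and 5.05, 5.58, 4.93 and 4.88 in the secretory stage, detected in replicate 2 only. Its log2 fold change was -0.28 (SE 0.150, limma adjusted p = 0.241), and the difference was below 0 in each of the 4 rats, at -0.20, -0.64, -0.02 and -0.26, with undetected signals on 7 of the 8 arrays. In the signals as deposited, the ratio of the maturation to the secretory stage was 1.10, 0.97, 1.04 and 1.02 in the 4 rats, so the common direction was not there before normalization. Slc26a4 was undetected on all 8 arrays, at log2 signals of 4.46 to 4.50 in the maturation stage and 4.31 to 4.57 in the secretory stage, so no fold is given for it. Apart from Slc26a2 in secretory replicate 2, the arrays did not show a level of these genes above background, which leaves a low level possible.

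Cftr encodes the cAMP-regulated channel of epithelia that conducts chloride and bicarbonate, and it was read by 2 probes that disagreed. The log2 signals of probe A were 6.83, 7.55, 6.99 and 6.96 in the maturation stage and 4.97, 4.63, 4.73 and 4.85 in the secretory stage, with detection on all 4 maturation-stage arrays and on no secretory-stage array. The values of the stages were well apart, and maturation replicate 2 was the highest. By probe A, the mean background-corrected signal of Cftr at maturation was higher by at least 4.11-fold, a bound without a p-value of its own. The fitted log2 fold change of probe A was 2.29 (SE 0.151, limma adjusted p = 3.52e-06). It was 0.98 without background correction, which is still past the fold threshold. Probe B was undetected on all 8 arrays, between 4.38 and 4.61, with a fitted log2 fold change of -0.04 (limma adjusted p = 0.737). The table does not give probe sequences here, and where the probes lie in the transcript was not tested. The gene is counted by probe A, which had the higher mean signal.

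**Figure D2:**
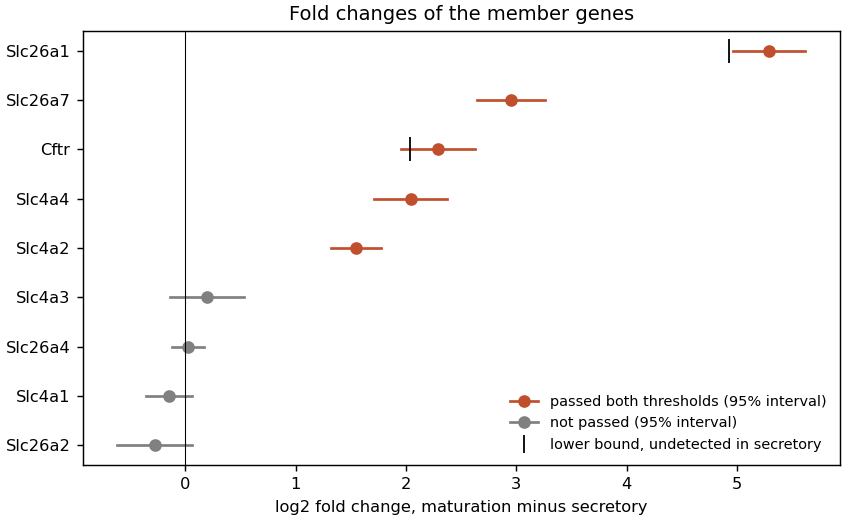
Fitted log2 fold change (maturation minus secretory) of each member gene with its 95% interval from limma, coloured where the gene passed both thresholds, with a tick at the log2 of the lower bound on the background-corrected signals for Slc26a1 and Cftr, which were undetected in the secretory stage. The intervals of the 5 called genes lie above 1 and those of the other 4 genes include 0.

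Each called gene had a two-sided exact permutation p of 0.0286 over the 8 arrays, the smallest that 4 against 4 arrays allow. The differences within each rat for Slc4a2 were 1.43, 1.39, 1.53 and 1.84. Rat 4 had the largest difference for Slc4a2 and rat 2 the largest for Slc4a4. For Slc26a1, Cftr and Slc26a7, whose secretory-stage signals were at background on all or 3 of the 4 arrays, the maturation-stage signal was the higher one in each rat, and the size of the difference is limited by the background.

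**Figure D3:**
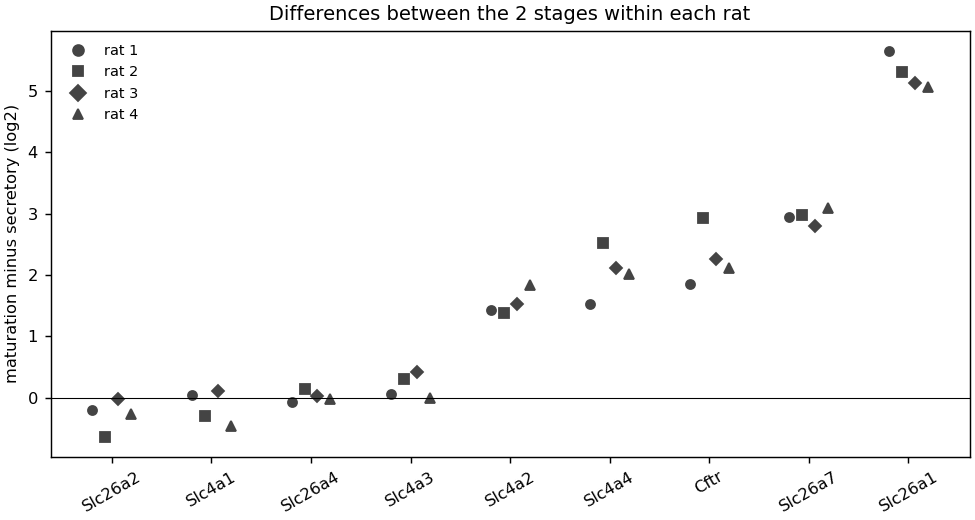
Difference in log2 signal between the maturation-stage and secretory-stage sample of each rat, with a symbol for each of the 4 rats and the genes ordered by their fitted fold change. All 4 rats lie above 1 for Slc4a2, Slc4a4, Cftr, Slc26a7 and Slc26a1, and the other 4 genes lie between -0.64 and 0.42, with Slc26a2 below 0 in all 4 rats. The secretory-stage signals of Slc26a1 and Cftr were undetected, and those of Slc26a7 on 3 of 4 arrays, so these differences are against background.

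Each member probe was read by 26 to 72 beads per array, with a standard error between beads of 2.20 to 5.30% of the signal. The signals of an array summed to 13355073 to 16122665 in the maturation stage and 11881691 to 12046793 in the secretory stage. The number of arrays limits the precision. Over 11233 probes, the correlation of each of the 8 arrays was higher with the arrays of its labelled stage, although the source field of maturation replicates 2, 3 and 4 reads secretory. The maturation-stage markers Klk4, Slc24a4 and Wdr72 were all higher in the maturation stage. Of the 5 genes listed as secretory-stage markers, Enam, Mmp20 and Dspp were lower, but Dspp is also a gene of odontoblasts. Enam, an enamel matrix protein gene, read 9.08, 5.17, 5.53 and 8.22 in maturation replicates 1 to 4 and 11.94 to 12.03 in the secretory stage, so that maturation replicates 1 and 4 held more of it than replicates 2 and 3. Without these 2 arrays the same count of members was called, 5 higher and none lower, and the log2 fold change of Slc4a3 was 0.47 (limma adjusted p = 0.0142), below the fold threshold.

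Some markers of other cell types also moved with the stage. Slc4a2 and proton pump subunits are used by osteoclasts as well as by epithelia. Of 8 osteoclast genes listed, 4 were on the array, and Mmp9 (7.99-fold) and Ctsk (2.18-fold) were higher, Oscar was not called, and Calcr, the calcitonin receptor of osteoclasts, was undetected on every array. The summed signals of the osteoclast list were 14667 to 18846 in the maturation stage and 5944 to 8461 in the secretory stage. Of 7 leukocyte genes on the array, 5 were higher, among them Cd68 (4.56-fold) and Cd14 (3.83-fold), with summed signals of 8921 to 11524 against 3345 to 4039. Of 6 odontoblast and osteoblast genes on the array, Ibsp was higher (3.86-fold) and the other 5 did not pass. This list had summed signals of 14616 to 17220 in the maturation stage and a wide range of 7381 to 23276 in the secretory stage. Dspp, which was not in this list, read 9.33 to 10.68 in the secretory stage and was undetected in the maturation stage. The part of odontoblasts in its fall was not tested. Of 4 endothelial genes, Vwf was higher (1.84-fold), with summed signals of 2187 to 3149 against 1197 to 1803. The 6 skeletal muscle genes did not pass with limma or with the test of the study's methods, and 1 of them was higher at an unadjusted p below 0.05. Their summed signals were 233 to 930 against 221 to 587. The part of these cells in the rise of Slc4a2 was not tested.

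The other genes that set cell and enamel pH were described from 9 lists with 119 genes, of which 107 were on the array and 83 were detected on at least 1 array. Of the 107 genes, 24 (22.4%) were called higher at maturation and 3 (2.80%) lower. They had a median log2 fold change of 0.14. The share of all probes called higher was 4.6%, and that called lower 3.15%. Without normalization between arrays 36 of these genes were higher and 1 lower, and without background correction 15 were higher and none lower.

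Among the other Slc4 and Slc26 genes, 13 were on the array and 4 of these were undetected throughout. Slc26a6, a chloride-bicarbonate-oxalate exchanger of apical membranes, read 10.20, 10.43, 10.82 and 10.56 in the maturation stage and between 7.99 and 8.25 in the secretory stage, with an estimated change of 2.43 (SE 0.125) on the log2 scale. Slc4a9, an anion transporter first described in kidney, moved the other way, from 6.91 to 7.71 in the secretory stage to 5.63 to 6.07 in the maturation stage, a log2 fold change of -1.31 (SE 0.174). The fall of Slc4a9 was -0.83 without normalization between arrays and -0.66 without background correction, both below the fold threshold. The other 11 genes did not pass the test.

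Of the 14 carbonic anhydrases on the array, 4 were higher and 10 did not pass. Car6, the secreted carbonic anhydrase of saliva, had the largest change of any gene in these lists, from 5.23 to 5.78 in the secretory stage to 11.88 to 12.30 in the maturation stage, with a log2 fold change of 6.67 (SE 0.131), or 5.05 without background correction. Car2, the abundant cytosolic enzyme, rose by 3.59 on the log2 scale (SE 0.131), between stage means of 9.67 ± 0.258 and 13.27 ± 0.159 (SD, n = 4 each). The mitochondrial Car5b rose by 1.27 (SE 0.129), but its log2 fold change was 0.60 without background correction, below the fold threshold.

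The V-type pump moves protons across membranes with energy from ATP. Of its 22 subunit genes on the array, 8 were higher and 14 did not pass. Several of the 14 had a limma adjusted p below 0.05 and missed only the fold threshold, some of them higher and some lower. Atp6v0d2, a subunit isoform prominent in osteoclasts and kidney, rose by 2.88 (SE 0.251), or 1.78 without background correction, and the widely used Atp6v1e1 and Atp6v1b2 rose by 1.57 (SE 0.0606) and 1.47 (SE 0.0641) on the log2 scale. Atp6v1b1, the isoform of acid-secreting kidney cells, was undetected on all arrays. Of the osteoclast markers given above, Mmp9 and Ctsk rose in the same samples, while Oscar and Calcr were not called. The part of osteoclasts in the change of Atp6v0d2 was not tested.

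Of the 10 sodium-proton exchangers on the array, Slc9a7, of the Golgi network, was called higher, at a fitted log2 fold change of 1.01 (SE 0.126). It was undetected in the secretory stage, and the bound was only at least 1.44-fold, below the fold threshold. The 9 others did not pass. The proton-potassium pump genes Atp4a, Atp4b and Atp12a were undetected on all 8 arrays.

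Of 23 chloride channel genes, 4 were higher, 1 was lower and 18 did not pass. Clca2, of a family that modulates calcium-activated chloride currents, rose by 2.75 (SE 0.140), from 5.58 to 5.71 in the secretory stage to 7.95 to 8.72 in the maturation stage, and by 1.61 without background correction. Ano1, a calcium-activated chloride channel, fell by 1.27 (SE 0.113), and among 6 cation-chloride cotransporters Slc12a5, which moves potassium and chloride out of cells, fell by 1.31 (SE 0.110), while the other 5 did not pass. Without background correction these falls were -0.47 for Ano1 and -0.61 for Slc12a5, below the fold threshold, and without normalization between arrays that of Slc12a5 was -0.84, also below it.

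Of 12 partners of CFTR and the exchangers, 4 were higher and 8 did not pass. Slc9a3r1, the scaffold NHERF1 that binds CFTR, rose by 2.02 (SE 0.253) on the log2 scale, or 1.21 without background correction. Wnk1 and Wnk4, kinases that regulate chloride transport, rose by 1.32 (SE 0.165) and 0.91 (SE 0.135). Without background correction the values for Wnk1 and Wnk4 were 0.76 and 0.84, below the fold threshold. Wnk4 was also below it when maturation replicate 2 or secretory replicate 4 was left out, at 0.80 and 0.82. Among the 4 genes of monocarboxylate and proton cotransport, Emb, a chaperone of these carriers, rose by 3.13 (SE 0.231), or 2.16 without background correction, and Slc16a3, which exports lactate, rose by 1.55 (SE 0.254).

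**Figure D4:**
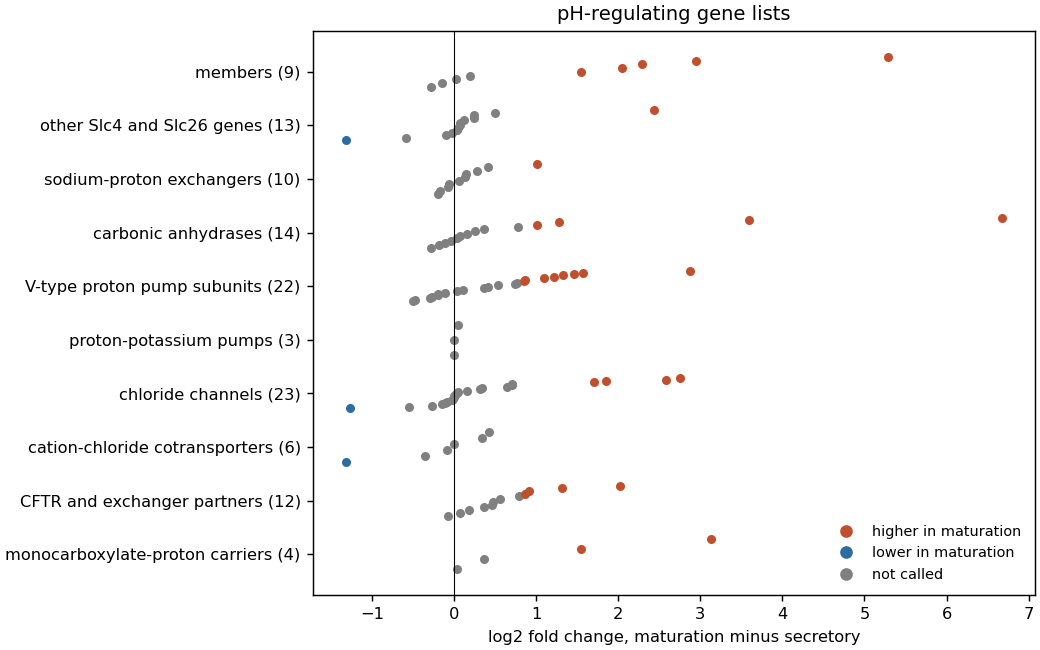
Log2 fold change (maturation minus secretory) of each gene on the array, by list, with the number of genes in each list in parentheses and the members in the top row. Genes called higher in the maturation stage lie in most lists and reach 6.67 for Car6, and the 3 genes called lower lie between -1.31 and -1.27.

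For each called member, the 2 probes of other genes with the most similar pattern were found by the Euclidean distance between log2 signals over the 8 arrays, after each probe was centred on its own mean. For Slc4a2 these were Ezh1 (distance 0.33) and Sbno2 (0.34), and for Slc4a4 Crim1 (0.28) and Cib2 (0.44). For Slc26a1 they were Slc1a1 (0.92), a glutamate transporter, and Slc24a4 (0.93), the calcium exchanger of maturation-stage ameloblasts. For Slc26a7 they were Dnajc5b (0.49) and Csrp1 (0.51), and for Cftr the unnamed locus LOC499201 (0.40) and Slc18b1 (0.43). The distances are descriptions over arrays of 2 stages, and genes with similar fold changes are near each other by construction.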

How the data were processed

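The authors deposited, per the labels and methods, 1 table of mean bead signals (intensity, neither background-corrected nor normalized) for 8 arrays, each with a detection p-value, its bead count and the standard error between beads (a signal). The summarising software and genome build are not given in the sources used here.

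limma 3.58.1 in R 4.3.3 was used: neqc (negative controls inferred from detection p-values, offset 16, quantile normalization, log2), then lmFit and eBayes on all 22523 probes, unpaired and without a filter. A gene was taken by its probe with the highest mean. A probe was undetected in a stage where its detection p was never below 0.05, and its fold was set against the lowest signal of a detected probe. Current symbols, by gene ID, matched 17430 probes. Exact tests used Python 3.11.15 and scipy 1.17.1. The test was tried on simulated data.

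Members and gene lists were chosen with earlier results of these data known. Named list genes were up to 3 with the largest rise and fall per list among called genes whose stages did not overlap, some of which are not reported here, and markers were named after their values were seen. The replicate numbers were taken as those of the rats. Deviations from the stage means of samples with the same number correlated at 0.195, 0.129, 0.219 and 0.234, against -0.0833 to -0.0426 between unlike numbers. Centring on the stage means ties the second range to the first, so this comparison is not a test of the pairing. Whether arrays with the same number were also handled together was not tested. Alternatives were other background, offset, scaling, filter, test, pairing, thresholds, probe choice and each array left out. Alternatives without normalization between arrays and without maturation replicates 1 and 4 were chosen after seeing the data.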

Additional observations from a re-analysis of the deposited data

Results flagged for a closer look

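In 7 of 50 sets of 4 values 1 value lay far from the other 3 by Dixon's criterion, which chance alone gives in about 2.5 of 50. Slc4a2 in secretory replicate 4 was the lowest of its stage at a log2 signal of 10.02, against 10.44 to 10.46 in the other replicates. Slc4a4 in maturation replicate 1 was the lowest at 8.88, against 9.17 to 9.22. Slc26a7 in maturation replicate 3 was the highest at 7.89, against 7.55 to 7.61, and in secretory replicate 3 the highest at 5.10, against 4.52 to 4.61, so that rat 3 was high in each stage. Slc12a5 in secretory replicate 2 was the highest at 7.17, against 6.89 to 6.93. Slc16a3 in secretory replicate 2 was the lowest at 6.79, against 7.84 to 8.06. Slc9a3r1 in maturation replicate 1 was the lowest at 7.91, against 8.28 to 8.29.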

How the results depend on the processing

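The count of members called, 5 higher and 0 lower, was the same under every alternative run and with each array left out. Without background correction 927 probes were called in place of 1745, with 15 of the other pH-regulating genes higher and 0 lower, and with no fold threshold 6051 probes were called, with 44 higher and 7 lower. Without normalization between arrays 2600 probes were called and 1 pH-regulating gene was lower. The share of called probes that were higher was 59.3%, 69.0% under median scaling and 87.2% without normalization between arrays, which moved the median log2 fold change of all probes to 0.13. With each array left out, 1705 to 1806 probes, 5 members higher and 0 lower, and 21 to 26 pH-regulating genes higher and 3 to 4 lower were called. With the rat as a replicate block 1750 probes, 5 members and 24 and 3 pH-regulating genes were called, and no member's call changed. For 24 called genes that were followed singly, which leaves out 8 further called list genes, 504 fold changes were computed under alternatives, of which 491 kept their call, 13 lost it and 0 changed sign. Of 82 fold changes of the 4 members not called, 4 changed sign, all of them of Slc4a1 or Slc26a4, and none gained a call. Among these 24 genes, the calls of Ano1, Car5b, Slc12a5, Slc4a9, Slc9a7, Wnk1 and Wnk4 were lost without background correction (7 of the 13), and the other 6 losses were of Wnk4 with an array left out, of Slc4a9 and Slc12a5 without normalization between arrays, and of Ano1 and Slc9a7 at an offset of 50. Without background correction the log2 fold changes were 0.60 for Car5b, 0.39 for Slc9a7, 0.76 for Wnk1 and 0.84 for Wnk4. The offset of 50 gave -0.76 for Ano1 and 0.50 for Slc9a7. The sizes of these folds thus depend on the background correction or the offset. Wnk4 was not dim, with stage means of 10.54 and 9.63, and its fold of 1.88 lay close to the threshold. The slide as a block was not run, since the table names no slides.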
